A study of Mus musculus with 12 samples.

Results

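The genes described here encode Meis, Pbx and Pknox proteins, homeodomain transcription factors of the TALE class, which are named for a short loop extension within the homeodomain. They were taken by name, through the symbols that the platform annotation gives to probe sets, and are 7 of the 19938 genes tested, namely Meis1, Meis2, Meis3, Pbx2, Pbx3, Pknox1 and Pknox2. The list is not the whole family: Pbx4 was also tested, is not one of the 7 and enters none of their counts, and its values are given with those of other TALE genes. Each is measured by 1 probe set. RNA came from 12 samples of a clone of D3, a mouse embryonic stem (ES) cell line, hybridised to Affymetrix arrays. The 4 groups of 3 biological replicates are embryoid bodies (EBs, floating aggregates grown without the cytokine LIF) treated for 12 h with 5 micromolar all-trans retinoic acid (ATRA), EBs treated for 12 h with its solvent DMSO, untreated day 4 EBs, and undifferentiated ES cells at day 0. All groups share the D3 clone. The EB groups share growth without LIF, and the wording of the labels leaves undecided whether the 12 h of treatment ended at day 4 or began then. The labels call the replicates biological, and nothing in them says that they came from separate days or cultures. A p-value here thus reflects how far such samples lie apart, and it may not cover the spread between independent cultures.

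Pbx proteins bind DNA together with Hox proteins and raise the selectivity of Hox binding. Meis and Pknox proteins form complexes with Pbx proteins through their amino-terminal parts, which favours the nuclear location and stability of Pbx, and complexes holding all of these partners act on Hox genes and on other genes of the hindbrain and limb. Retinoic acid, the active form of vitamin A, is a known inducer of anterior Hox genes, and Meis genes respond to it in the limb bud.

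Levels are log2 values as deposited, given for replicates 1, 2 and 3 of each group or as mean ± SD (n = 3). Differences are log2 differences ± SE estimated by limma from the 12 arrays together (n = 3 in each group), and adjusted p-values are Benjamini-Hochberg values over 19938 genes with a threshold of 0.05. The array medians lay between 7.76 and 7.86, and the number of arrays limits the precision. The file holds no detection calls, so a low level is not known to lie above background, and levels of different genes were not compared with each other. The retinoid response genes Cyp26a1, Rarb, Dhrs3 and Stra8 were all higher with ATRA than with DMSO, by 1.76 ± 0.09 for Cyp26a1, whose product breaks down retinoic acid. These genes also differed between groups without ATRA. In day 4 EBs against ES cells Cyp26a1 was higher (1.22 ± 0.09). Rarb (-0.99 ± 0.09), Dhrs3 (-0.35 ± 0.05) and Stra8 (-2.47 ± 0.14) were lower there. The 6 ES cell markers were Pou5f1, Nanog, Sox2, Zfp42, Esrrb and Klf4. Their mean log2 level was 12.28 to 12.32 with ATRA, 12.44 to 12.49 with DMSO, 12.45 to 12.54 in day 4 EBs and 12.51 to 12.55 in ES cells. Zfp42 (-0.57 ± 0.06), Sox2 (-0.20 ± 0.06) and Klf4 (-0.19 ± 0.05) were lower with ATRA than with DMSO. For Pou5f1 (0.005), Nanog (-0.006) and Esrrb (-0.13) that difference did not pass.

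The 7 genes did not move as one. Meis2 was 2.09-fold higher in day 4 EBs than in ES cells, Pbx2 was higher with ATRA than in each other group, Pknox2 was lower in all EB groups than in ES cells, Meis1 was slightly higher with ATRA than with DMSO, and Meis3 and Pbx3 passed the test in no comparison. The difference between the highest and the lowest group mean was 1.31 for Meis2, 0.76 for Pknox2, 0.59 for Pbx2, 0.23 for Meis1, 0.22 for Pknox1, 0.11 for Meis3 and 0.09 for Pbx3, where the median over all genes tested was 0.21. The pooled SD within groups ran from 0.05 for Pbx2 to 0.10 for Pknox2, with a median of 0.08 over all genes.

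**Figure D1:**
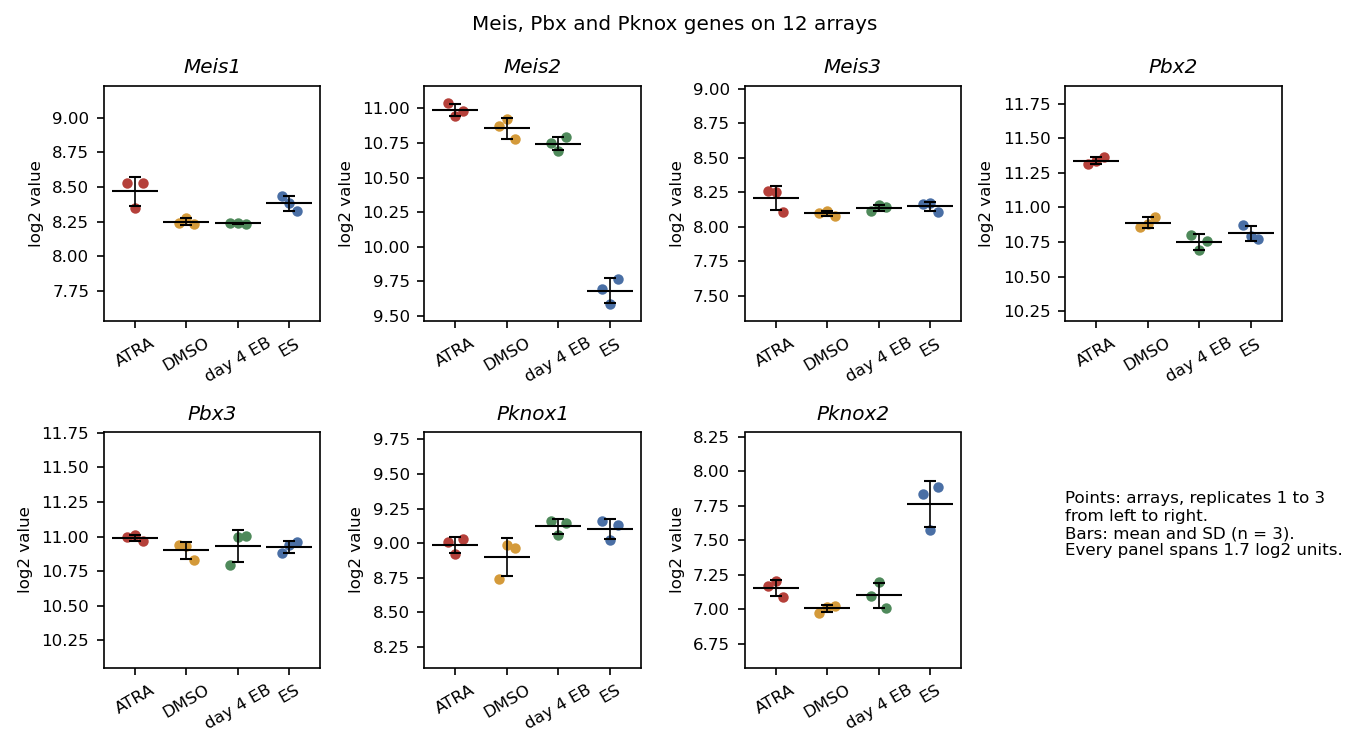
Log2 values (vertical axis) of the 7 genes on each array, by group (horizontal axis); points are arrays, bars are mean and SD (n = 3), and every panel spans the same height. Pbx2 stands apart with ATRA, Meis2 is lowest and Pknox2 highest in ES cells, and Meis3 and Pbx3 are nearly level.

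ATRA against DMSO separates the response to the retinoid from that to its solvent. Of the 7 genes, 2 rose, 0 fell and 5 did not pass, where 13.3% of all genes passed in either direction, 6.26% as higher and 7.05% as lower. All 7 differences were above 0, and they stayed above 0 after quantile normalization and after median centring of the arrays. The share of all genes above 0 was not counted. The 7 differences rest on the same arrays, and that of Pknox1 was as low as 0.0095 with single arrays left out. Against untreated day 4 EBs, 6 of the 7 differences of the ATRA group were above 0 and 1 was below, that of Pknox1 (-0.14). The median of the 7 differences from DMSO was 0.13, against 0.01 over all genes. The values of the 3 ATRA and the 3 DMSO arrays did not overlap for 5 of the 7 genes, where 39.6% of all genes had no overlap.

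Pbx2, a Pbx protein gene expressed widely in the embryo, gave 11.31, 11.34 and 11.37 with ATRA. It gave 10.86, 10.88 and 10.93 with DMSO, 10.80, 10.69 and 10.75 in day 4 EBs and 10.87, 10.79 and 10.77 in ES cells. The lowest ATRA array thus lay above every array of the other groups. The rise over DMSO was 0.45 ± 0.05, or 1.37-fold (limma, adjusted p = 4.43e-05), and its 95% interval ran from 0.35 to 0.55. Over day 4 EBs it was 0.59 ± 0.05, or 1.5-fold (limma, adjusted p = 4.19e-06), and over ES cells 0.53 ± 0.05 (limma, adjusted p = 2.33e-06). The 3 comparisons share the ATRA arrays. The other groups lay close together: DMSO exceeded ES cells by 0.08 (limma, adjusted p = 0.223, or 0.0157 with array weights) and day 4 EBs by 0.14 (limma, adjusted p = 0.18), and day 4 EBs and ES cells differed by -0.06 (limma, adjusted p = 0.366).

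Meis1, best known as a Hox partner in blood stem cells and leukaemia, gave 8.53, 8.35 and 8.53 with ATRA, 8.24, 8.28 and 8.23 with DMSO, 8.24, 8.24 and 8.24 in day 4 EBs and 8.44, 8.38 and 8.32 in ES cells. ATRA replicate 2 was the closest to the DMSO arrays but still above them. The rise over DMSO was 0.22 ± 0.05, or 1.16-fold (limma, adjusted p = 0.0186). Its call ended without DMSO 1, DMSO 3, ATRA 1 or ATRA 3, with adjusted p-values up to 0.0907 in limma. Over the 6 runs that each left out 1 array of these groups, the differences ran from 0.19 to 0.28. Over day 4 EBs the rise was 0.23 ± 0.05 (limma, adjusted p = 0.0109), a call lost without ATRA 1 or ATRA 3 (limma, adjusted p = 0.0548 and 0.055). In the order of levels, ATRA stood first, then ES cells, DMSO and day 4 EBs, and no neighbours in that order passed the test with all arrays weighted equally. ATRA exceeded ES cells by 0.09 (limma, adjusted p = 0.258), by 0.15 without ATRA 2 (limma, adjusted p = 0.043) and by 0.14 with array weights (limma, adjusted p = 0.01), both of which passed. Day 4 EBs lay below ES cells on all arrays, by -0.14 ± 0.05, and did not pass (limma, adjusted p = 0.0607).

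Meis2, which is required for cranial and cardiac neural crest development in the mouse, gave 11.04, 10.95 and 10.98 with ATRA, 10.87, 10.92 and 10.78 with DMSO, 10.75, 10.69 and 10.79 in day 4 EBs and 9.69, 9.59 and 9.77 in ES cells. The ATRA arrays were above the DMSO arrays by 0.13 ± 0.06, which did not pass (limma, adjusted p = 0.171, 95% interval 0.01 to 0.26). Over day 4 EBs the ATRA group was higher by 0.24 ± 0.06, or 1.18-fold (limma, adjusted p = 0.0111), and without ATRA 1 this call was lost (limma, adjusted p = 0.0514). The DMSO group lay between them, 0.11 ± 0.06 above day 4 EBs (limma, adjusted p = 0.369).

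Promoter sequences of 4 of the 7 genes, Meis1, Meis2, Meis3 and Pbx2, were matched by symbol in a RefSeq table of build GRCm38.p6, and those of Pbx3, Pknox1 and Pknox2 were not used here. The 250 bases before the annotated start are shown 5′ to 3′ on the gene's strand for the genes that were called higher with ATRA in at least 1 comparison. They are at chr17:34592009-34592258 (plus strand) for Pbx2, chr11:19018970-19019219 (minus strand) for Meis1 and chr2:116064620-116064869 (minus strand) for Meis2. Capitals would mark a motif searched, and there is no match in these sequences.
Pbx2: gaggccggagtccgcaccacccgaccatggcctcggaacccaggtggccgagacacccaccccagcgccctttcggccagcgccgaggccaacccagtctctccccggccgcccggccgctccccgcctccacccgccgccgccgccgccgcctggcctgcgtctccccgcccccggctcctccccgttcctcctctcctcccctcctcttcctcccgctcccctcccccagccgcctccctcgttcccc
Meis1: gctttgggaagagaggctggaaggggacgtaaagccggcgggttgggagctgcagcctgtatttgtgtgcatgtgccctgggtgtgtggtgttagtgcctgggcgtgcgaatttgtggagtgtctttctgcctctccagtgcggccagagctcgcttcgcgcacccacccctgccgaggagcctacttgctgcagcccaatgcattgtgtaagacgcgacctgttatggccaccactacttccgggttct
Meis2: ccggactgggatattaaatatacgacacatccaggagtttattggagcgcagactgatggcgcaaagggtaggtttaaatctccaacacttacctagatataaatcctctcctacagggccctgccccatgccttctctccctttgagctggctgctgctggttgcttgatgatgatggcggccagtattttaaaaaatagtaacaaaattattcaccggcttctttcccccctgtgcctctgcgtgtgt

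The letters searched, on both strands, were TGACAG (a Meis and Pknox core), TGATTNAT (a Pbx and Hox site), AGGTCA and AGTTCA (retinoid receptor half-sites), and AGGTCA repeated at a spacing of 2 or 5 bases. Any repeat match also holds AGGTCA matches. Of 32841 promoter windows of 250 bases, 15.9% hold TGACAG, 2.83% TGATTNAT, 14% AGGTCA, 11.8% AGTTCA and 0.00913% each of the repeats. Of the 4 genes, Meis3 alone had a match, to AGTTCA, read on the opposite strand with its first base 22 bases before the start. The absence of a match says only that these letters are not in this window. The Pbx2 window was 77.6% G and C, the Meis1 window 59.6% and the Meis2 window 47.6%.

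The other 4 genes did not pass for ATRA against DMSO. Meis3, which takes part in hindbrain patterning in frog and zebrafish, gave 8.26, 8.25 and 8.11 with ATRA and 8.10, 8.12 and 8.08 with DMSO, so that ATRA 3 lay within the range of the DMSO arrays (0.11 ± 0.05, limma, adjusted p = 0.181). Pbx3, which is needed for breathing control in newborn mice, gave 11.00, 11.01 and 10.97 against 10.94, 10.93 and 10.83 (ATRA against DMSO, 0.09 ± 0.06, limma, adjusted p = 0.388), with no overlap. Pknox1, also called Prep1 and needed by the early mouse embryo, gave 9.01, 8.92 and 9.03 with ATRA and 8.74, 8.99 and 8.96 with DMSO. These groups overlapped, DMSO 1 being the low array (0.09 ± 0.07, limma, adjusted p = 0.459). Pknox2, its paralogue, gave 7.17, 7.21 and 7.09 against 6.98, 7.02 and 7.02 (ATRA against DMSO, 0.15 ± 0.08, limma, adjusted p = 0.246). The 95% intervals of these 4 differences reached at most 0.32, so rises of the size of that of Pbx2 lay outside them.

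**Figure D2:**
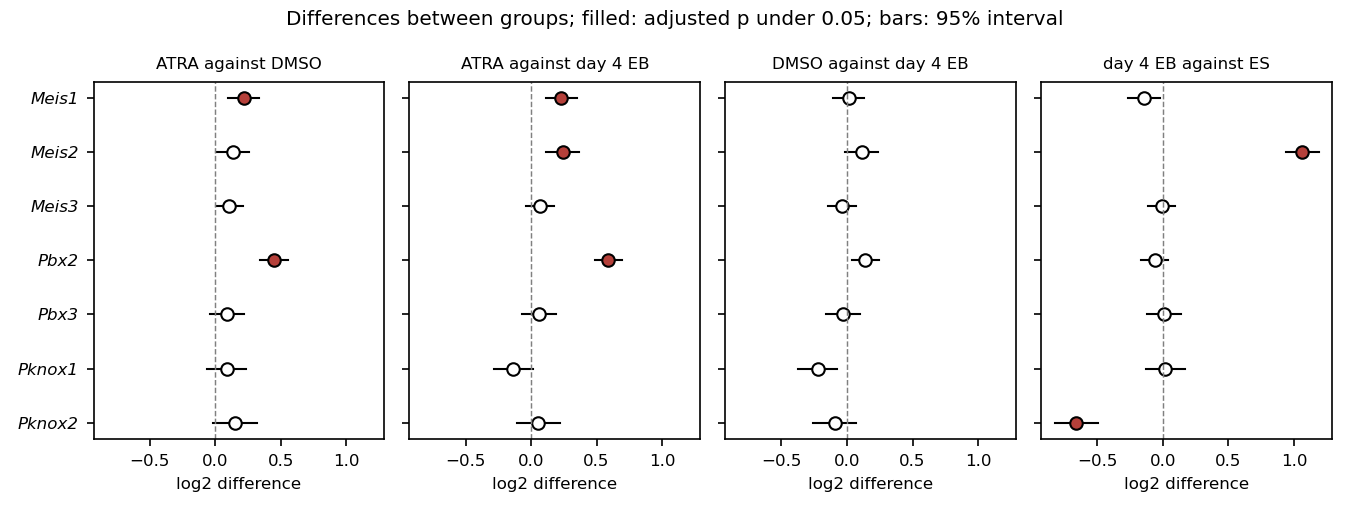
Log2 differences (horizontal axis) of the 7 genes in 4 comparisons, with 95% intervals from the fit as bars; filled points had an adjusted p under 0.05. Pbx2 leads with ATRA, and Meis2 (1.06) and Pknox2 (-0.66) lie farthest from 0 for day 4 EBs against ES cells.

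Many anterior Hox genes, whose products are partners of these proteins, rose with ATRA. Of 14 measured Hox genes of paralogue groups 1 to 5, which act in the hindbrain and neck, 9 rose with ATRA against DMSO and 0 fell, with a median difference of 0.80. Hoxa5 rose by 2.27 ± 0.07, Hoxb4 by 1.27 ± 0.05, Hoxa3 by 1.22 ± 0.05 and Hoxb1, whose hindbrain enhancer is a known target of Pbx and Hox complexes, by 1.27 ± 0.06. Of 23 Hox genes of groups 6 to 13, 5 rose and 1 fell, with a median of 0.08. Pbx4, the further Pbx gene tested, averaged 8.69 ± 0.04 with ATRA, 8.44 ± 0.04 with DMSO, 8.42 ± 0.05 in day 4 EBs and 8.49 ± 0.12 in ES cells (SD, n = 3 each). It rose with ATRA over DMSO by 0.24 ± 0.06 (limma, adjusted p = 0.0163), over day 4 EBs by 0.26 ± 0.06 (limma, adjusted p = 0.00798) and over ES cells by 0.20 ± 0.06 (limma, adjusted p = 0.0196), and it passed in none of the other 3 comparisons. Among the 10 TALE homeobox genes outside the 7, Pbx4 rose over DMSO and Tgif1, which encodes a repressor of TGF-beta and retinoid signalling, fell (-0.20 ± 0.05, limma, adjusted p = 0.0105), while 8 did not pass and the median was 0.02. Of 7 measured hindbrain genes and genes tied to Meis or Pbx, 1 rose and 2 fell: Pax6, a Meis target in the lens, rose by 0.70 ± 0.09, and the hindbrain border gene Gbx2 and the ephrin receptor gene Epha4 fell (-0.76 ± 0.05 and -0.41 ± 0.05). Pbxip1, which encodes a Pbx-interacting protein, stood at 0.04 ± 0.05 and did not pass (limma, adjusted p = 0.64).

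**Figure D3:**
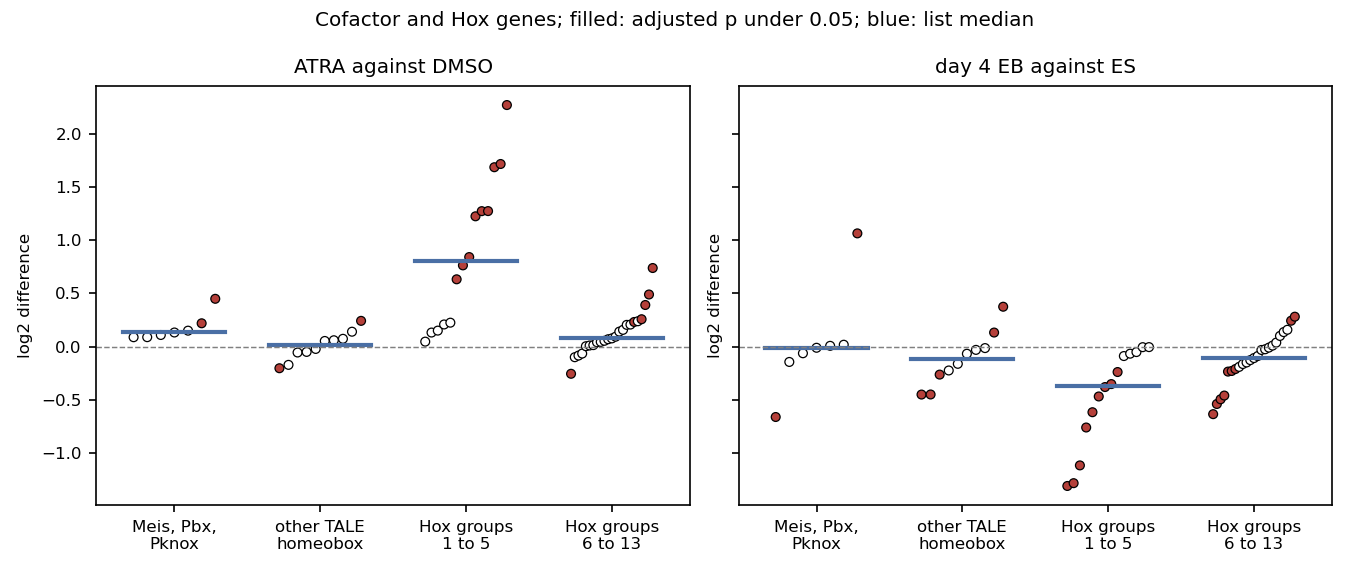
Log2 differences (vertical axis) of single genes in 4 lists (horizontal axis) for ATRA against DMSO and day 4 EBs against ES cells; filled points had an adjusted p under 0.05 and blue lines are list medians. With ATRA the median of Hox groups 1 to 5 was 0.80 and that of the 7 cofactor genes 0.13; in day 4 EBs those medians were -0.37 and -0.01.

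Markers of cell types also moved with ATRA. Neural progenitor markers had a mean log2 level of 8.87 to 8.94 with ATRA and 8.74 to 8.81 with DMSO, with 2 of 6 called higher and 1 lower. Endoderm markers had 10.27 to 10.43 with ATRA and 10.45 to 10.64 with DMSO, with 1 of 10 higher and 5 lower, and 3 of the 6 ES cell markers were lower and 0 higher. Of 12 fibroblast markers 1 was higher and 3 were lower, of 6 blood and endothelium markers 1 was higher and 1 lower, and 0 of 6 mesoderm markers passed in limma. No marker can be at 0 on this scale. The part of these shifts in the rises of Pbx2 and Meis1 was not tested. In RNA from whole bodies, fewer cells of a type and less RNA per cell cannot be told apart.

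Day 4 EBs against ES cells measured aggregation, differentiation, culture without LIF and any change in the mix of cell types together. These cannot be told apart. Of the 7 genes, Meis2 rose, Pknox2 fell and 5 did not pass, where 34.7% of all genes passed, 17.8% as higher and 16.9% as lower. The members' median difference was -0.01, against -4e-04 over all genes. The groups did not overlap for 3 of the 7 genes, where 41.3% of all genes had no overlap.

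The Meis2 rise was 1.06 ± 0.06, or 2.09-fold (limma, adjusted p = 3.09e-08), with a 95% interval of 0.94 to 1.19. The lowest day 4 EB array, at 10.69, exceeded the highest ES array, at 9.77. The DMSO and ATRA groups were above ES cells as well, by 1.17 ± 0.06 with DMSO (2.26-fold) and by 1.31 ± 0.06 with ATRA (2.47-fold), and these comparisons share the ES arrays. In the order of levels only the step from ES cells to day 4 EBs passed the test, and the later steps, from day 4 EBs to DMSO and from DMSO to ATRA, did not. Beside this rise, 10 of 10 endoderm markers, such as Ttr and Hnf4a, were higher in day 4 EBs, with a mean log2 level of 10.06 to 10.24 in day 4 EBs and 8.91 to 8.95 in ES cells. Of the neural progenitor markers 4 of 6 were higher and 1 lower (8.69 to 8.75 in day 4 EBs, 8.45 to 8.49 in ES cells). Their part in the Meis2 rise was not tested.

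Pknox2, also called Prep2, gave 7.09, 7.20 and 7.01 in day 4 EBs and 7.83, 7.57 and 7.88 in ES cells. ES replicate 2 was the low array of its group and still lay above every EB array. The fall was -0.66 ± 0.08, or 1.58-fold lower (limma, adjusted p = 2.18e-05), with a 95% interval of -0.83 to -0.49. With DMSO it lay 1.69-fold below ES cells (-0.76 ± 0.08) and with ATRA 1.52-fold (-0.61 ± 0.08, limma, adjusted p = 4.41e-05). The EB groups followed each other closely, ATRA above day 4 EBs by 0.06 (limma, adjusted p = 0.708) and day 4 EBs above DMSO, DMSO against day 4 EBs being -0.09 (limma, adjusted p = 0.569). Fibroblast markers fell too, 10 of 12 measured with 0 higher. Their mean log2 level was 7.85 to 7.90 with ATRA, 7.93 to 7.99 with DMSO, 7.96 to 8.11 in day 4 EBs and 9.21 to 9.24 in ES cells. Dcn, Thy1 and S100a4 were lower in day 4 EBs by 3.43-fold, 3.53-fold and 4.93-fold. Their part in the fall of Pknox2 was not tested.

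Hox groups 1 to 5 fell in 9 of 14 cases in day 4 EBs against ES cells with 0 higher (median -0.37), with Hoxa5 at -1.31 ± 0.07, Hoxa3 at -0.76 ± 0.05, Hoxa2 at -1.12 ± 0.08 and Hoxb4 at -0.62 ± 0.05. Hox groups 6 to 13 fell in 7 of 23 cases and rose in 2 (median -0.11). Of the other TALE genes 2 rose and 3 fell: the repressor genes Tgif2 (0.37 ± 0.07) and Tgif1 (0.13 ± 0.05) rose, and the Iroquois genes Irx1 (-0.45 ± 0.05), Irx5 (-0.45 ± 0.05) and Irx2 (-0.26 ± 0.07) fell. Egr2, a gene of hindbrain segments and of the early response to serum, fell (-0.52 ± 0.07), as did Pax6 (-0.30 ± 0.09), and Epha4 rose (0.31 ± 0.05). Fibroblast markers were lower in the same comparison (above), and their part in the falls of these genes was not tested.

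DMSO against day 4 EBs measured the solvent with any added time. Here 0 of the 7 genes passed in limma, where 0.747% of all genes did (0.537% higher and 0.211% lower). The differences farthest from 0 were those of Pbx2 (0.14 ± 0.05) and Pknox1 (-0.22 ± 0.07, limma, adjusted p = 0.144). Neither of these overlapped between its groups, where 22.4% of all genes had no overlap. Pknox1 gave 8.74, 8.99 and 8.96 with DMSO and 9.16, 9.06 and 9.15 in day 4 EBs. It passed when genes with a mean below the median of all genes were left out (limma, adjusted p = 0.0464). The 95% intervals of the 7 differences lay between -0.37 and 0.24. Of 10 endoderm markers, 4 were higher with DMSO than in day 4 EBs and 0 lower, with Apoa1 at 1.04 ± 0.10 and Ttr at 0.97 ± 0.12. In each other marker list 0 passed, and Cyp26a1 rose by 0.75 ± 0.09. The part of these shifts in the values of the 7 genes was not tested. This comparison shares the DMSO arrays with ATRA against DMSO. Against day 4 EBs, 3 of 7 rose with ATRA and 0 fell, where 18.4% of all genes passed, 7.79% as higher and 10.6% as lower. The groups of that comparison did not overlap for 4 of the 7 genes and for 36.7% of all genes.

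Against ES cells, Pknox1 passed with DMSO, and with ATRA it passed in the fit with array weights alone, and these treated groups did not differ from each other past the threshold (above). It gave 9.16, 9.02 and 9.13 in ES cells and was lower with DMSO by -0.21 ± 0.07 (limma, adjusted p = 0.0311), a call lost without ES 1, ES 3 or DMSO 1, after median centring, with all probe sets and in a fit to these groups alone. With ATRA the difference was -0.12 ± 0.07 and did not pass (limma, adjusted p = 0.219), whereas with array weights it was -0.13 and passed (limma, adjusted p = 0.0314). In the order of its levels, day 4 EBs stood first, then ES cells, ATRA and DMSO, and no neighbours in that order passed the test without array weights. In all, 2 of the 7 genes were higher and 1 lower with ATRA than in ES cells, where 36.6% of all genes passed, 17.5% as higher and 19.1% as lower. With DMSO 1 was higher and 2 lower than in ES cells, where 39% passed, 18.4% as higher and 20.6% as lower. The groups did not overlap for 4 of the 7 genes in either comparison, where 47.4% (ATRA) and 47.5% (DMSO) of all genes had no overlap. Meis3 lay between 8.08 and 8.26 on all 12 arrays and Pbx3 between 10.80 and 11.01, with no comparison passing.

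The genes whose values over the 12 arrays were most like those of Meis2, Pbx2 and Pknox2 were named by Pearson's r. The arrays fall into 4 groups and may share a normalization, so r mostly follows the group means and is given as a description. For Pbx2 they were the integrin gene Itga5 (0.99), the alkaline phosphatase gene Alpl (0.98) and the AP-1 subunit gene Jund (0.98). Jund averaged 11.37 with ATRA, 10.74 with DMSO, 10.55 in day 4 EBs and 10.58 in ES cells. For Pknox2 they were the forkhead gene Foxc2 (0.99), the microtubule protein gene Map6 (0.99) and the endopeptidase-family gene Ecel1 (0.98), and Foxc2 averaged 7.84, 7.60 and 7.65 in the ATRA, DMSO and day 4 EB groups and 8.47 in ES cells. For Meis2 they were Dennd2c (0.99), Lexm (0.99) and Slc25a13 (0.99), a mitochondrial carrier gene, which averaged 11.59, 11.54 and 11.51 in the ATRA, DMSO and day 4 EB groups and 11.04 in ES cells.

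**Figure D4:**
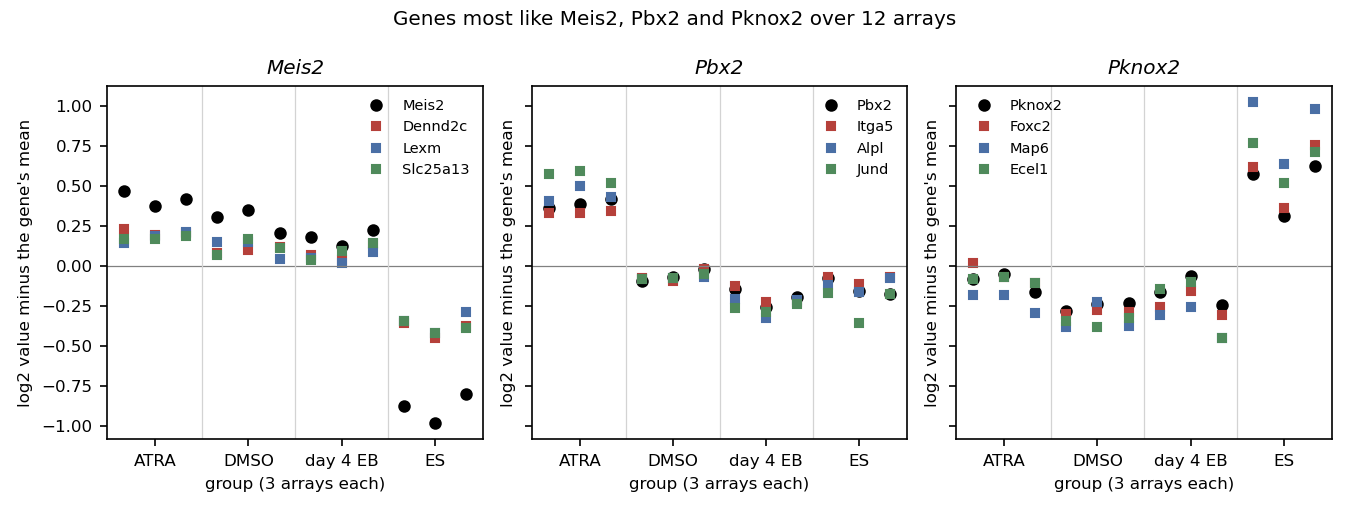
Log2 value minus the gene's own mean over 12 arrays (vertical axis) for Meis2, Pbx2 and Pknox2 (black circles) and the 3 genes most like each (squares), with 3 arrays per group on the horizontal axis. The Meis2 difference between ES cells and the EB groups is larger than that of its 3 companions, the Pknox2 difference is smaller than that of its 3, and Pbx2 lies within the range of its 3 with ATRA.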

How the data were processed

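Per the labels' protocols, biotinylated single-stranded cDNA made from total RNA was hybridised to Affymetrix arrays. The authors deposited 1 table of log2 values for 35556 probe sets on 12 arrays. The log2 base is inferred from values of 2.30 to 14.7, and nothing in the sources used here names the background correction, normalization or summarization. The near-equal array medians do not by themselves show that the arrays were scaled to each other. If they were, the scaling would hide changes of total RNA per cell. Replicate arrays correlated at 0.992 to 0.997 and no array was a copy.

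Of the probe sets, 21789 had 1 symbol in the platform annotation, 1621 had several and 12146 had no symbol there. Where several single-symbol probe sets shared a gene, the one with the largest average over the arrays was taken, which left 19938 genes, with no filter on low values. Models were fitted in R 4.3.3 with limma 3.58.1 (lmFit, contrasts, eBayes, two-sided) with 1 mean per group over all 12 arrays and 6 comparisons, and the fit was tested on simulated data. The members, lists, tests and naming rule (the 7 genes, up to 4 called genes per list by adjusted p, and the 3 genes with the highest Pearson's r for members whose group means span at least 0.5, without predicted genes, microRNAs and olfactory or vomeronasal receptors) were chosen with earlier results of these data known. Sequences are from RefSeq. Alternatives were other scalings, filters, probe set rules, variance models, a block for the replicate number, omission of each array in turn, and a threshold of 0.01. Leaving out ES 2 and EB 2 together was chosen after seeing the data.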

Additional observations from a re-analysis of the deposited data

How the results depend on the processing

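The calls of Pbx2 for ATRA against DMSO and of Meis2 and Pknox2 for day 4 EBs against ES cells held under every alternative run in which the gene was tested. Pknox2, Meis1 and Meis3 were not tested when genes with a mean below the median were left out. Among 696 recomputed differences, 652 kept direction and side of the threshold, 17 lost a call, 5 gained one and 22, all uncalled, changed sign. Leaving out arrays gave 1 to 2 of the 7 genes called for ATRA against DMSO, 1 to 3 for ATRA against day 4 EBs, and 0 to 128 genes in all for DMSO against day 4 EBs, in place of 149. With the filter on the mean, 1 of the 7 was called for ATRA against DMSO, 1 for day 4 EBs against ES cells and 1 for DMSO against day 4 EBs, and at an adjusted p of 0.01, 1 for ATRA against DMSO and 1 for ATRA against day 4 EBs. With array weights 5 were called for ATRA against ES cells. Counts over all genes were 4311 (array weights) and 1605 (threshold of 0.01) in place of 2655 for ATRA against DMSO, 2126 (0.01) in place of 3673 for ATRA against day 4 EBs, and 11052 (array weights) in place of 7306 for ATRA against ES cells. For DMSO against day 4 EBs they were 253 (quantile normalization), 761 (filter), 476 (all probe sets), 626 (intensity trend), 25 (only these groups), 27 (without ES 2 and EB 2) and 5 (0.01). The replicate number as a block gave 62 there and changed no call of the 7 genes. Same-numbered arrays did not pair across the groups as a whole, with 3 of 12 arrays closest to their own number. Correlations of deviations were 0.30 and 0.51 for replicates 1 and 2 of day 4 EBs and ES cells. The other same-numbered pairs gave -0.13 to 0.09. Changes of sign were in Meis3 and Pbx3 for day 4 EBs against ES cells with quantile normalization (0.029 and -0.0076) and array weights (0.020 and -0.018), Meis3 with median centring (0.018) and Pbx3 without ES 2 and EB 2 (-0.018). For DMSO against ES cells they were in Meis3 with quantile normalization (0.0030) and Pbx3 with median centring (0.026), and for DMSO against day 4 EBs in Pbx3 without ES 2 and EB 2 (0.0019). With single arrays left out, the range for day 4 EBs against ES cells was -0.030 to 0.0023 for Meis3, -0.028 to 0.075 for Pbx3 and -0.023 to 0.048 for Pknox1. For DMSO against day 4 EBs it was -0.0025 to 0.021 for Meis1 and -0.098 to 0.0052 for Pbx3. For Pbx3 it was -0.010 to 0.093 for ATRA against day 4 EBs and -0.047 to 0.012 for DMSO against ES cells. The cause of these changes was not tested. Another scaling moved the share of higher calls for DMSO against day 4 EBs to 57.7% (quantile) or 87.0% (median centring), in place of 71.8%, and with median centring for DMSO and ATRA against ES cells to 58.3% and 58.6%, in place of 47.2% and 47.9%.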
